A study of Mus musculus with 8 samples.

Results

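The expression of 10 genes of the Notch pathway was followed through single cells of the mouse mammary gland. They comprise the receptors *Notch1*, *Notch2*, *Notch3* and *Notch4*, the ligands *Jag1* and *Jag2*, and the targets *Hes1*, *Hey1*, *Heyl* and *Nrarp*. These genes were taken by symbol from the 27998 genes of the deposited count matrices, and all 10 were found. The cells came from 8 C57BL/6N mice, and 2 mice stood for each of the 4 stages. The nulliparous group (NP) was 8 weeks old, gestating mice (G) were at day 14.5, lactating mice (L) at day 6, and post-involution mice (PI) were taken 11 days after natural weaning. Ages of the other groups are not given in the sources used here. All groups shared one sort, for EpCAM-positive cells lacking CD31, CD45 and Ter119. The study staged both NP mice and PI mouse 2 in oestrus, and PI mouse 1 in dioestrus.

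Notch receptors are membrane proteins that are cut when a Jagged or Delta-like ligand on a neighbouring cell binds them. The freed intracellular part enters the nucleus, joins the DNA-binding protein RBPJ and switches on genes such as *Hes1*, *Hey1* and *Heyl*, which encode transcriptional repressors, and *Nrarp*, which encodes a small inhibitor of the pathway. In the mammary gland the pathway is known for its part in luminal fate. In blood vessels it acts in endothelial cells, and *Notch3* in the mural cells around them.

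Unique molecular identifiers (UMIs, 1 per captured RNA molecule) were summed over the cells of each mouse in each cluster of the deposited annotation. Clusters of 20 or more cells per mouse gave 51 sums, and levels are given as CPM, counts scaled to the same total of UMIs in every sum (1000000). Libraries held 13306760 to 34552742 UMIs in 1449 to 5736 cells passing the filters, with medians from 3770 UMIs per cell in L mouse 1 to 9624 in G mouse 1. In all, 392 barcode sequences occurred in more than 1 library, on 791 cells. Luminal markers (*Krt8*, *Krt18*, *Krt19* and *Epcam*) summed to 2650 CPM or more in C1 to C11. In the basal C12 they came to 5815 and 3919 CPM in NP mice and to 2985 and 7775 CPM in PI mice. The sum therefore did not separate C12 from C1 to C11. In C14 these markers came to 2246 and 1557 CPM, and in C15 to 158 and 97.9 CPM. Clusters C1 to C15 are those which the study kept as epithelial. C17, C18 and C19 held the immune, fibroblast and endothelial markers.

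C15, which the study called Procr+ basal cells, held pericyte markers, and of the basal markers mainly *Acta2* and *Myh11*. *Procr*, the gene of the name, was at 562 and 707 CPM in its L mice, against 16.5 and 11.3 CPM in C14. The 5 basal markers summed to 9621 and 11382 CPM in C15, beside 9847 and 9413 CPM in C12 of NP mice and 36934 and 33245 CPM in C14. Most of that sum was *Acta2*, smooth muscle actin, at 7376 and 8512 CPM, a gene which pericytes are also known to express. The rest was mostly *Myh11*, at 1899 and 2492 CPM. All 8 pericyte markers were detected in its 205 and 57 cells of the L mice, and they summed to 6334 and 5518 CPM. The next highest value, 917 CPM, was in the endothelial C19. Detection of all 8 was not particular to C15, and C14 of both L mice held all 8 as well, at 163 and 89.5 CPM. Of its own pericyte markers the study found only *Des* and *Cspg4* positive in C15. It could not exclude that C15 holds non-epithelial cells. *Rgs5*, a regulator of G protein signalling in mural cells, stood at 4288 and 3560 CPM. *Epcam*, the gene of the sorted antigen, was at 18.6 and 13.3 CPM in C15, against 133 and 162 CPM in the myoepithelial C14. *Krt5*, a basal keratin, was at 45.0 and 97.9 CPM in C15 and at 999 and 915 CPM in C14. *Krt14*, another, was at 297 and 276 CPM against 4878 and 5442 CPM. *Trp63*, also among the basal markers, was at 4.66 and 4.45 CPM against 146 and 154 CPM. C15 is therefore referred to by its number. Differences between clusters are given as descriptions without a test, since the clusters were built from the same counts.

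**Figure D1:**
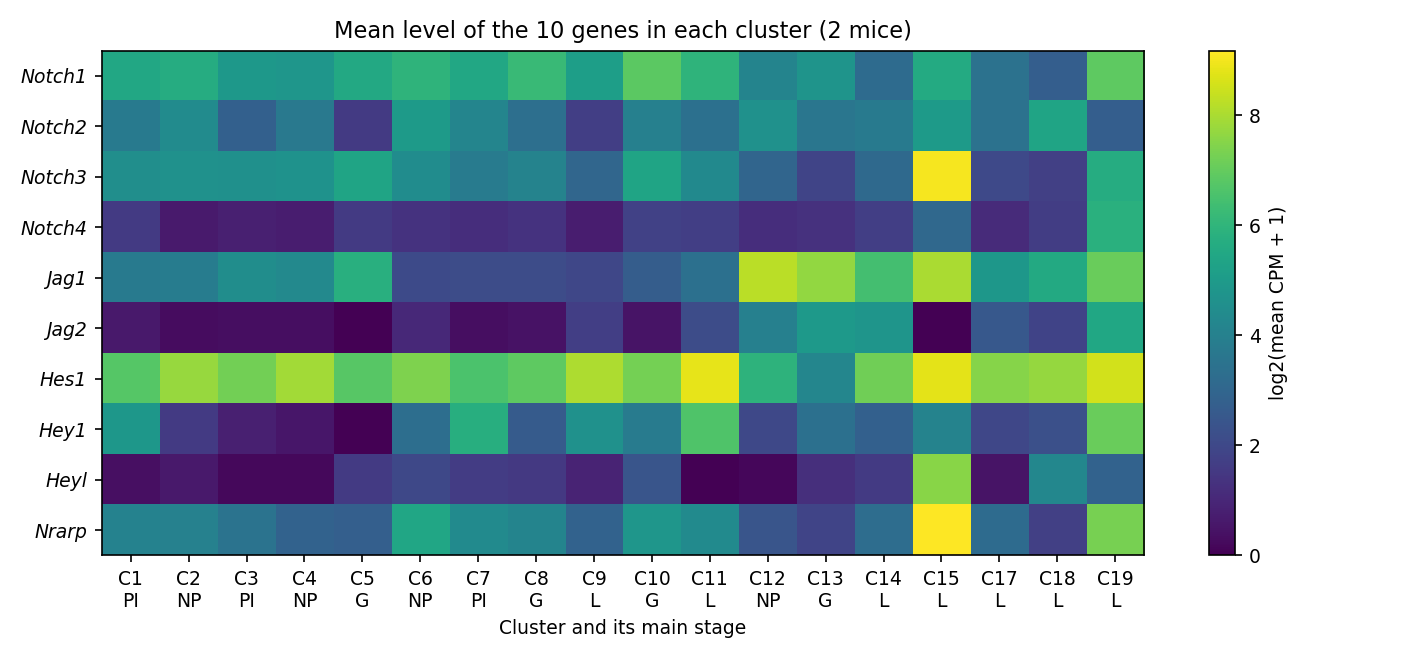
Mean level of each of the 10 genes (rows) in each cluster (columns) at the stage that contributed most of its cells, as log2(mean CPM + 1) over 2 mice. Rows should be read across. *Notch3*, *Heyl* and *Nrarp* peaked in C15, *Notch4* in C19, and *Jag1* was high in the basal clusters C12 to C14 and in C15.

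The 4 receptors had 4 different distributions over the clusters at their main stages. *Notch1* (chr2:26457903-26516663 on GRCm38, minus strand) was highest in endothelial C19 of L mice, with 120 and 117 CPM. The alveolar progenitors C10 of G mice had 119 and 110 CPM, which overlapped with C19. Differentiated alveolar cells C8 followed with 68.8 and 77.0 CPM, and luminal progenitors C6 of NP mice had 62.2 and 59.7 CPM. Basal cells were lower, with 19.3 and 13.7 CPM in C12 of NP mice and 6.2 and 10.2 CPM in C14 of L mice. Among the luminal clusters *Notch1* had its lowest mean in the hormone-sensing differentiated C4 of NP mice, with 29.8 and 24.7 CPM. C3 of PI mice, of the same type, overlapped with C4. C5 of G mice, the third cluster of that type, had 40.6 and 50.3 CPM. The alveolar C9 of L mice, at 43.7 and 25.6 CPM, overlapped with C3 and C4.

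*Notch2* (chr3:98013527-98150361, plus strand) was highest in the fibroblast cluster C18. Its C18 cells had 53.6 and 26.0 CPM in L mice, while the 24 and 56 cells of the NP mice had 166 and 65.6 CPM. C6 of NP mice came next with 28.4 and 34.0 CPM, and overlapped with C18 of L mice and with C15. Basal C12 of NP mice held 22.3 and 26.1 CPM. *Notch2* was therefore present in both layers of the NP epithelium.

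*Notch3* (chr17:32120820-32166852, minus strand) was set apart by C15. Its level was 581 and 481 CPM there, from 374 and 108 UMIs. C19 of L mice, second in order, had 56.9 and 44.3 CPM. Alveolar progenitors C10 followed with 38.3 and 41.8 CPM, and C4 of NP mice had 23.4 and 25.2 CPM. The myoepithelial C14 of the same L mice had 11.6 and 4.0 CPM, which made the level in C15 higher by 50.1 and 121 times. At least 1 *Notch3* UMI occurred in 77.6% and 77.2% of the cells of C15, whose median depth was 2895 and 3683 UMIs. In fibroblast C18 of these mice, with a median depth of 4043.5 and 4015 UMIs, the share was 0.704% and 0 of 52 cells, which allows a share of up to 5.77%. With every cell thinned to 1000 UMIs the C15 shares were 43.4% and 35.1%, with no cell too shallow to keep.

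*Notch4* (chr17:34564268-34588503, plus strand) marked the endothelial cluster. C19 held 47.0 and 64.5 CPM in L mice and 21.9 and 27.0 CPM in G mice. C15 was next with 6.21 and 8.90 CPM, resting on 4 and 2 UMIs. In the main clusters C1 to C14 its mean did not exceed 2.40 CPM, in C10. The genes most like it over the 51 sums were *Rasgrf2*, *Mmrn2* and *Vsig2*, at Pearson correlations of 0.86, 0.85 and 0.83.

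**Figure D2:**
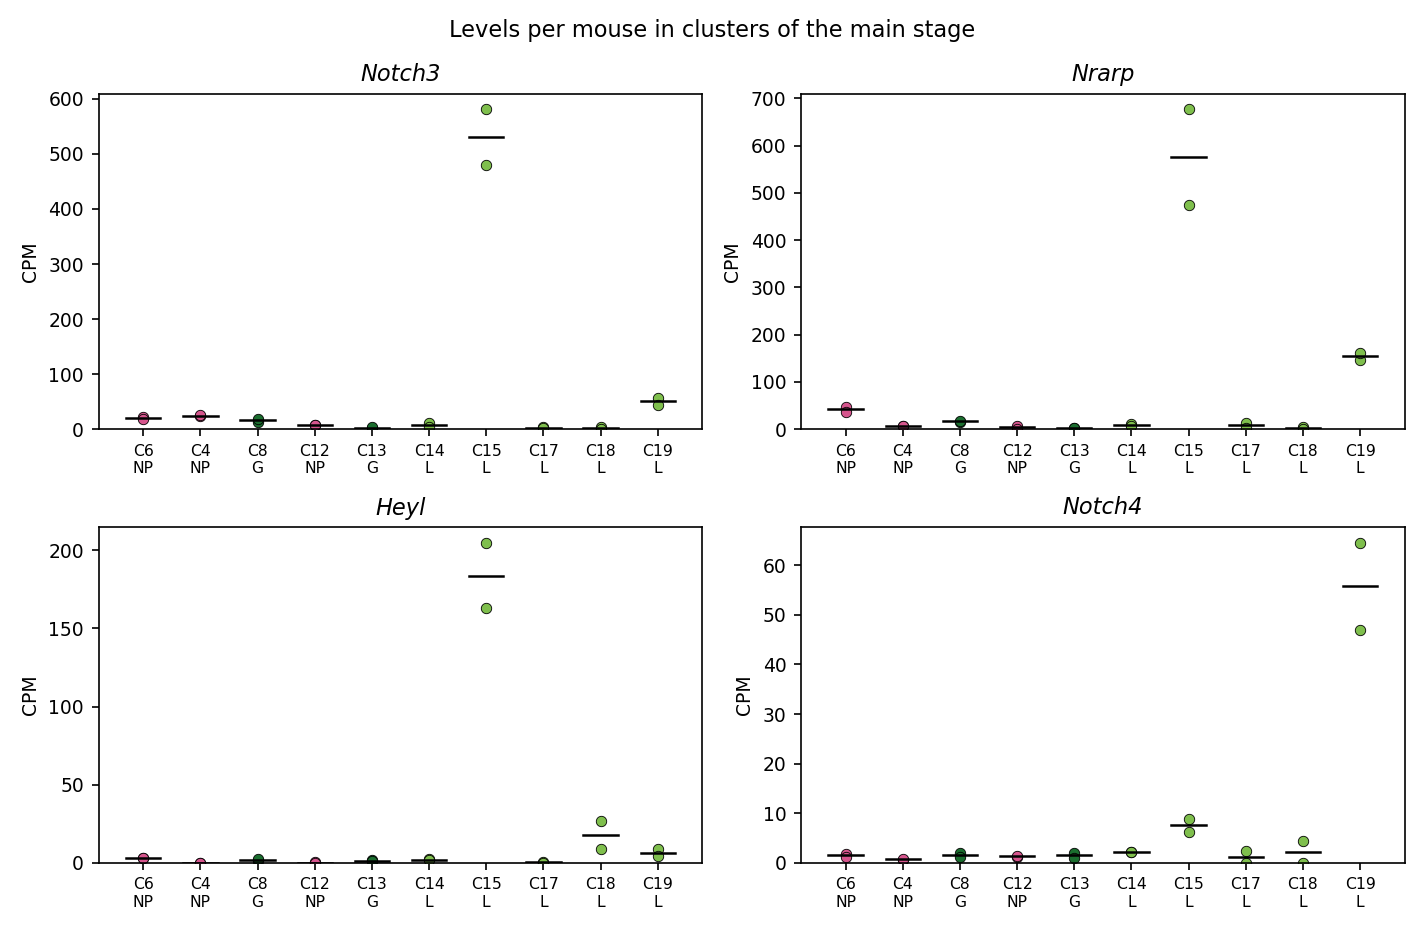
Levels of *Notch3*, *Nrarp*, *Heyl* and *Notch4* in CPM for each mouse (points) and their mean (bars) in 10 clusters at their main stage, with the colour giving the stage (NP in pink, G in dark green and L in light green). *Notch3* reached 581 and 481 CPM in C15 and *Nrarp* 475 and 676 CPM, while *Notch4* was highest in C19.

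The ligands were genes of the basal layer and of vessels. *Jag1* (chr2:137081456-137116644, minus strand) was highest in basal C12 of NP mice, with 301 and 295 CPM. C15 had 220 and 298 CPM and overlapped with C12, and C13 of G mice had 189 and 225 CPM. Endothelial C19 followed with 110 and 157 CPM, then C14 with 75.0 and 93.9 CPM. Luminal progenitors of the same NP mice had 3.92 and 2.49 CPM, so that *Jag1* was 76.7 and 119 times higher in C12 than in C6. In G mice the basal C13 exceeded the alveolar C8 by 58.8 and 63.4 times. Hormone-sensing cells took an intermediate place, with 19.2 and 19.1 CPM in C4. At least 1 *Jag1* UMI occurred in 76.0% and 74.5% of C12 cells of NP mice, which had median depths of 6046 and 6302.5 UMIs. In C6, at 7767.5 and 6597 UMIs, 3.49% and 1.90% of cells had one. *Mical2*, an actin regulator, and *Itgb1*, the beta-1 integrin of the basal membrane contact, were among the 3 genes most like *Jag1* over the 51 sums, at 0.87 and 0.83. The third was *Trim35*, at 0.86.

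*Jag2* (chr12:112907819-112929776, minus strand) was restricted to fewer clusters. It stood at 24.8 and 60.5 CPM in C19 of L mice, at 32.4 and 25.8 CPM in C13 and at 25.4 and 27.6 CPM in C14. These 3 clusters were followed by C12 of NP mice with 15 and 14.6 CPM. In C15 no *Jag2* UMI was found in either mouse, which allows up to 4.66 and 13.3 CPM, where *Jag1* was high. In C1 to C11 its mean level was at most 3.36 CPM, in C11. The genes most like it were *Reln*, *Fam212a* and *Kcnj2*, each at 0.80.

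*Hes1* (chr16:30064384-30067796, plus strand), the broadest of the targets, was found in all clusters. It was highest in alveolar progenitors C11 of L mice with 461 and 440 CPM, in C15 with 418 and 476 CPM, and in C19 of L mice with 314 and 439 CPM. These overlapped with one another in that order. C4 of NP mice had 223 and 256 CPM and C6 had 196 and 137 CPM. Basal cells of NP and G mice were lower, at 58.1 and 61.3 CPM in C12 of NP mice and 20.0 and 14.9 CPM in C13. C14 of L mice had 135 and 150 CPM, which overlapped with C6. Its most similar genes included *Jun*, an immediate-early transcription factor, at 0.67, beside *Tmem126b* at 0.69 and *Snrnp27* at 0.68.

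*Hey1* (chr3:8663359-8667256, minus strand) was highest in C19 of L mice, with 119 and 149 CPM, and in C11 with 130 and 68.2 CPM. Luminal progenitors C7 of PI mice followed with 54.6 and 49.8 CPM. Hormone-sensing differentiated cells had almost none, with 0.553 and 0.414 CPM in C4 and 0.90 and 0.579 CPM in C3. Luminal progenitors thus exceeded hormone-sensing differentiated cells within the same mouse by 14.7 and 23.1 times in NP mice. The C4 values rest on only 7 and 6 UMIs, so these ratios are rough. In PI mouse 2 the ratio of C7 to C3 was 86.0, on 9 UMIs in C3. C3 of PI mouse 1, with 3 UMIs, held too few for a ratio. The potassium channel gene *Kcnj15* was the most similar, at 0.75.

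*Heyl* (chr4:123233556-123249875, plus strand) and *Nrarp* (chr2:25180758-25183339, plus strand) followed *Notch3* into C15. *Heyl* was at 163 and 205 CPM in C15 and at 26.8 and 8.67 CPM in C18, the second cluster. In C14 it was at 2.18 and 1.68 CPM. *Nrarp* was at 475 and 676 CPM in C15, at 147 and 161 CPM in C19 and at 48.0 and 35.7 CPM in C6 of NP mice. The order of these 3 clusters showed no overlap. In C14 it was at 10.2 and 7.46 CPM, which was exceeded in C15 by 46.7 and 90.6 times. Cells with an *Nrarp* UMI made up 57.1% and 80.7% of C15, and 3.39% and 2.96% of C14, where the median depth was 3701 and 4148 UMIs. After thinning these shares were 34.1% and 38.6%, against 0.755% and 0.515%. C15 was the highest of C1 to C15 for 4 of the 10 genes, *Notch3*, *Notch4*, *Heyl* and *Nrarp*, and also when milk genes were left out of the totals or when only sums of 50 or more cells were used.

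The promoters of *Notch3* and *Nrarp*, the receptor and the target that were high together in C15 and C19, are shown as the 250 bases before the start in RefSeq (GRCm38.p6), at chr17:32166891-32167140 on the minus strand and chr2:25180508-25180757 on the plus strand. Promoters were found for 7 of the 10 genes, all but *Hes1*, *Hey1* and *Heyl*. They were searched on both strands for TGGGAA, part of the site that RBPJ is known to bind. None of the 7 held it, while 21.5% of the 27025 gene promoters of this length did. Capitals mark CACGTG, the E-box palindrome that HES and HEY proteins are known to bind among others, which was looked for after the sequence had been seen. It stood 108 to 103 bases before the start of *Nrarp*, in none of the other 6, and in 6.05% of all promoters.
Notch3: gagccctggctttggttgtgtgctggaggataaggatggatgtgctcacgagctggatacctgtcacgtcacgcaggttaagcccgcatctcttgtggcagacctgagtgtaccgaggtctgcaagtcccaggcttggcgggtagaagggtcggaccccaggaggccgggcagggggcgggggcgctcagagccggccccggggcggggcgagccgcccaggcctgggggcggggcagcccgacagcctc
Nrarp: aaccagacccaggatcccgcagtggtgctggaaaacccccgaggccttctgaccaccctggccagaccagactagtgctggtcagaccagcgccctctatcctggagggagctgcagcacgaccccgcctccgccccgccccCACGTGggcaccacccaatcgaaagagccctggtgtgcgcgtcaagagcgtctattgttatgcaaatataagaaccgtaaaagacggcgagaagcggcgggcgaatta
The annotation (GENCODE M21) places an antisense gene over each of these genes, *Gm17276* over *Notch3* and *Gm38287* over *Nrarp*. Whether the counting used strand is not given in the sources used here.

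The stages were then compared within cell types over mice, 2 against 2, with edgeR's quasi-likelihood test and Benjamini-Hochberg adjustment over all genes tested. Changes are log2 fold changes ± SE and were called at an adjusted p under 0.05. Over the 9 comparisons, in which 7.43% to 48.3% of all genes tested were called, *Hes1* was called most often, in 8, with 5 falls and 3 rises. Several comparisons share mice, so these counts are not independent of one another. *Hey1* rose in 5 of the 6 comparisons in which it passed the filter on low counts. *Notch2* fell in 4 of 9, of which a second test, DESeq2, called only the fall in basal cells of G against NP mice (adjusted p = 0.027). *Notch4* and *Heyl* were called in none of the 2 and 3 in which they were tested. In these sums fewer cells with a gene on and less RNA of it per cell cannot be told apart.

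**Figure D3:**
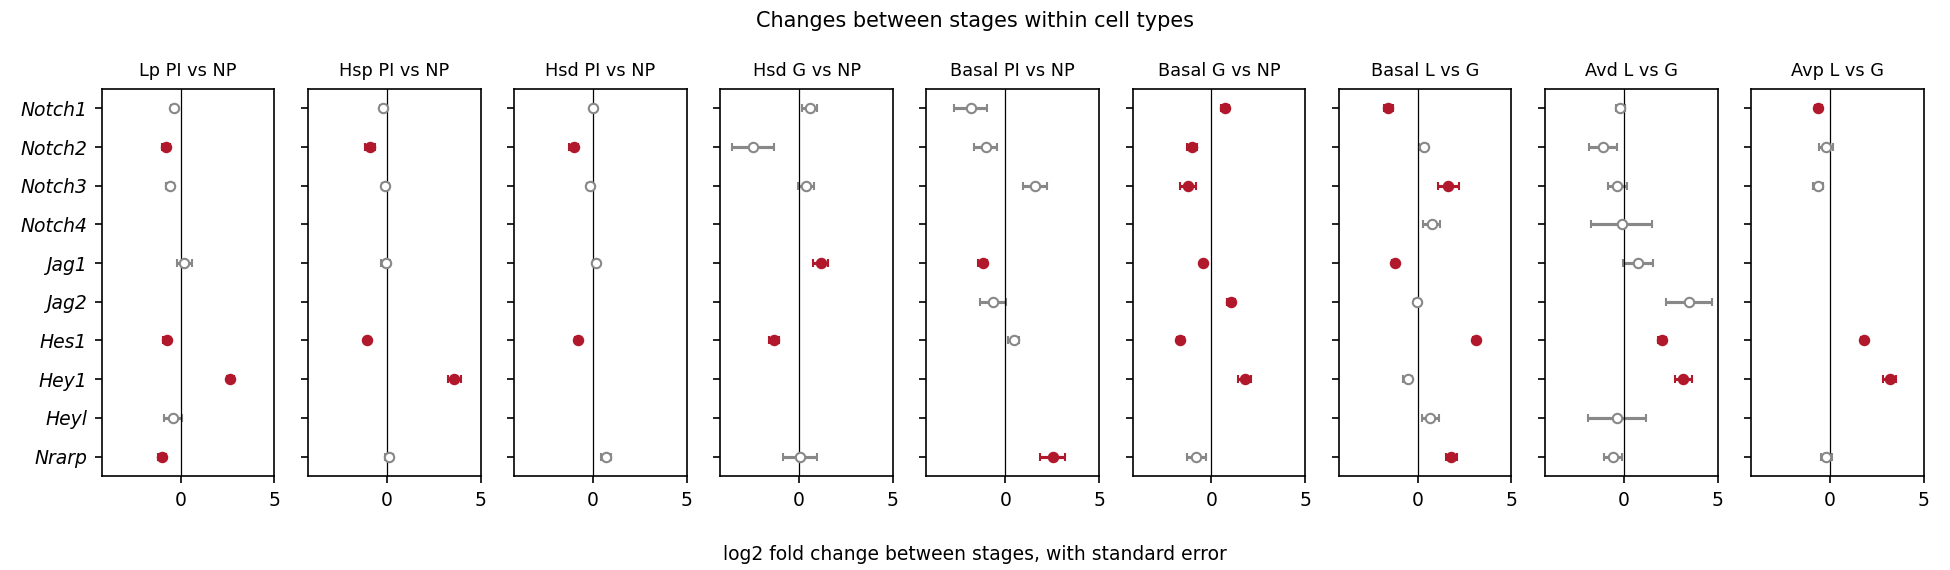
Log2 fold change (x axis, points, with SE bars) of each gene (rows) in the 9 stage comparisons (panels), the first stage named against the second. Filled red points passed an adjusted p of 0.05 and open grey points did not. Genes without a point had too few UMIs for the test. *Hes1* lay left of 0 in 5 panels and right of 0 in the 3 panels of L against G among its filled points.

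In luminal progenitors (Lp, C6 and C7 together), PI mice had more *Hey1* and less *Hes1*, *Nrarp* and *Notch2* than NP mice. Of the 8 genes tested 4 were called, while 26.9% of all genes tested were. *Hey1* had 8.15 and 9.52 CPM in NP mice and 54.2 and 49.5 CPM in PI mice, and the groups were well apart. It rose by 2.65 ± 0.19 on the log2 scale, or 6.26-fold (adjusted p = 6.1e-06). The share of cells with a *Hey1* UMI was 5.91% and 6.01% in C6 of NP mice and 27.9% and 22.9% in C7, where the medians of 6483.5 and 5579 UMIs per cell were below those of C6. *Hes1* had 196 and 141 CPM in NP mice and 112 and 79.9 CPM in PI mice, and it fell by 0.74 ± 0.18 (adjusted p = 0.012). The 22 cells of PI mouse 1 that lay in C6, the NP cluster, had 171 CPM from 26 UMIs, within the range of C6 in NP mice. They were placed in C6 by the same counts, and 18.2% of them had a *Hey1* UMI. PI mouse 2 had only 9 cells in C6, too few for a sum. Without NP mouse 1 the change of *Hes1* was -0.50 and was not called. *Nrarp* went from 48.0 and 35.6 to 16.8 and 23.2 CPM, and it fell by 0.99 ± 0.20 (adjusted p = 0.0044). Thus 2 targets fell and another rose in sums of the same cell type, which do not show whether single cells changed in both. The fourth target, *Heyl*, was not called (-0.40 ± 0.47, adjusted p = 0.57).

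The receptors of luminal progenitors were lower in PI mice or did not pass. *Notch2* had 28.4 and 33.9 CPM in NP mice and 19.6 and 14.6 CPM in PI mice, with a change of -0.78 ± 0.20 (adjusted p = 0.015). The call was lost without NP mouse 2 (0.082) or PI mouse 2 (0.064). *Notch1*, with 62.2 and 60.0 CPM in NP mice and 44.8 and 45.0 CPM in PI mice, had a change of -0.36 ± 0.14 (adjusted p = 0.069). *Notch3* had -0.56 ± 0.20 (adjusted p = 0.065), and without PI mouse 2 it was called (-0.72, adjusted p = 0.038). *Jag1* stayed under 4 CPM in all 4 mice, at 0.19 ± 0.40 (95% interval -0.70 to 1.07). A pathway list of 47 other genes was examined beside the 10 (further ligands, proteases, the nuclear complex, sugar transferases, ubiquitin ligases and related repressors). Of these 33 were tested, of which 5 fell and 0 rose, beside the 26.9% of all genes called. The largest falls were in *Dtx4*, a Deltex ubiquitin ligase (-1.97 ± 0.39), *Adam17*, a protease of the receptor cleavage family (-1.28 ± 0.19), and *Maml3*, a Mastermind co-activator (-0.86 ± 0.21). *Rbpj* itself fell by 0.46 ± 0.16 (adjusted p = 0.049).

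In hormone-sensing progenitors (Hsp, C2 and C1) *Hey1* rose and *Hes1* and *Notch2* fell. Of 7 genes tested 3 were called, against 16.6% of all genes. *Hey1* had 3.09 and 0.867 CPM in NP mice, from 16 and 3 UMIs, and 30.8 and 24.6 CPM in PI mice. It rose by 3.61 ± 0.34 (adjusted p = 2.5e-05). *Hes1* had 220 and 215 CPM in NP mice and 110 and 102 CPM in PI mice, and it fell by 1.05 ± 0.13, or 2.07-fold (adjusted p = 0.00021). Neither gene's groups overlapped. *Notch2* went from 19.9 and 20.5 to 15.9 and 8.13 CPM (-0.91 ± 0.27, adjusted p = 0.034), and the call was lost without NP mouse 1, NP mouse 2 or PI mouse 2 (0.17 to 0.43). *Nrarp* had 14.5 and 15.9 CPM in NP mice and 14.4 and 17.2 CPM in PI mice, with overlapping groups (0.10 ± 0.21, 95% interval -0.36 to 0.56). Of the pathway list 34 genes were tested, and *Hes6* rose (0.78 ± 0.25) while *Dtx4* (-1.55 ± 0.24), *Maml3* (-0.73 ± 0.18) and *Adam10*, a sheddase that cuts bound receptors (-0.45 ± 0.13), fell.

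In hormone-sensing differentiated cells (Hsd, C4 and C3) 2 of 6 genes tested were called between PI and NP mice, against 14.3% of all genes. *Hes1* had 223 and 255 CPM in NP mice and 150 and 142 CPM in PI mice, and it fell by 0.78 ± 0.16 (adjusted p = 0.0084). The 40 and 88 cells of the PI mice that lay in C4, the NP cluster, had 142 and 140 CPM. Without NP mouse 2 the change was -0.63 and was not called (adjusted p = 0.076). *Notch2* had 10.3 and 13.7 CPM in NP mice and 7.40 and 5.54 CPM in PI mice (-1.03 ± 0.24, adjusted p = 0.016). Here the C4 cells of PI mice had 15.8 and 9.58 CPM. These values rest on few UMIs, since C3 held 22 and 84 of the 27 and 89 *Notch2* UMIs of the PI mice. So few cannot tell the level of NP mice from that of C3, which was 6.60 and 5.41 CPM. Without NP mouse 2 the *Notch2* call was lost (0.23). *Nrarp* had 6.11 and 6.66 CPM in NP mice and 7.67 and 12.5 CPM in PI mice (0.71 ± 0.26, adjusted p = 0.086), and without PI mouse 1 it was called (0.97, adjusted p = 0.0017). Of 35 genes of the pathway list tested, 3 rose and 2 fell. The largest changes were a rise of *Neurl1a*, a ligand ubiquitin ligase, from 0.705 and 1.03 to 5.20 and 5.92 CPM (2.63 ± 0.36), and a fall of *Dtx4* (-1.19 ± 0.23). The third largest was a rise of *Psen2*, a subunit of the gamma-secretase that frees the receptor's intracellular part (0.98 ± 0.21).

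**Figure D4:**
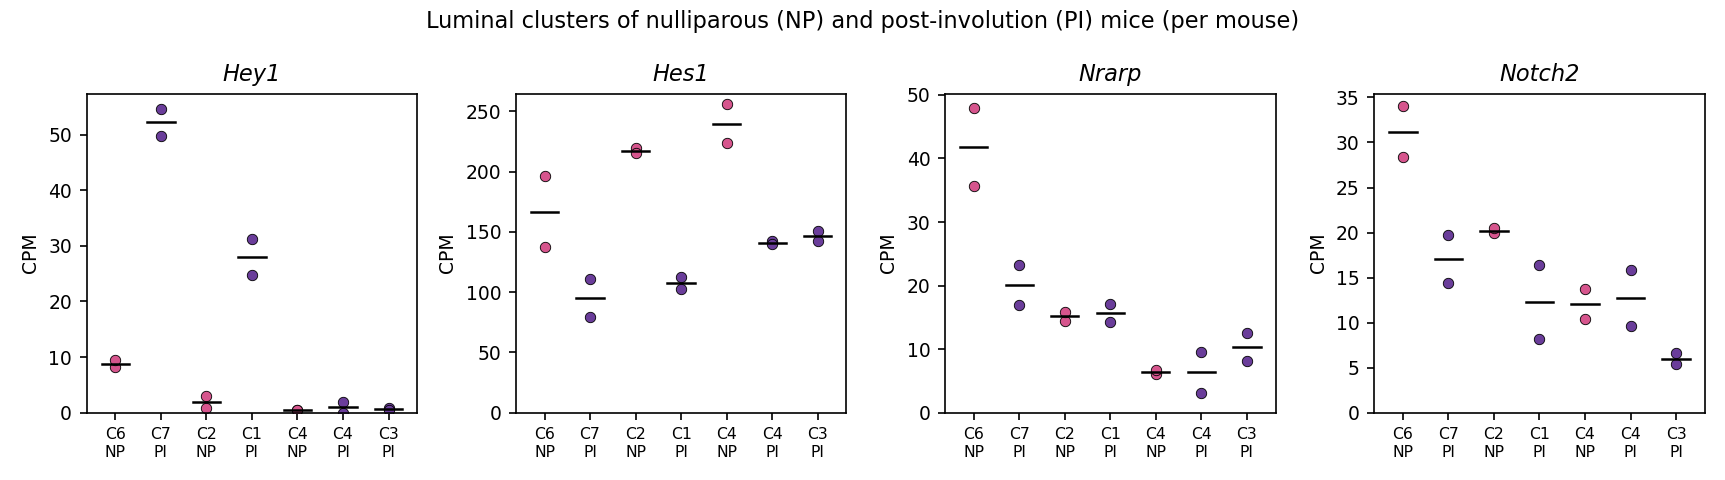
Levels of *Hey1*, *Hes1*, *Nrarp* and *Notch2* in CPM per mouse (points) and mean (bars) in luminal progenitors (C6, C7), hormone-sensing progenitors (C2, C1) and hormone-sensing differentiated cells (C4, C3) of NP (pink) and PI (purple) mice. *Hes1* was lower in PI mice in each type, and *Hey1* was higher in C7 and C1 and near 0 in C3 and C4.

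Whether these changes differed between the cell types was tested over the 12 sums of the NP and PI mice, with mouse as a term. Against Lp, 20.2% of the 11743 genes tested differed in Hsd and 3.55% in Hsp. *Nrarp* differed in both. Its change was 1.66 ± 0.25 higher in Hsd than in Lp (adjusted p = 5.9e-05) and 1.01 ± 0.27 higher in Hsp (adjusted p = 0.042). The second call was lost when any 1 of the 4 mice was left out (adjusted p = 0.061 to 0.50). *Hey1* changed less in Hsd than in Lp by 2.17 ± 0.63 (adjusted p = 0.019). Its Hsd level stayed under 1 CPM in each mouse, from 7 and 6 UMIs in NP mice and 3 and 10 in PI mice. In Hsd alone *Hey1* did not pass the filter on low counts, and it entered this fit through its counts in the other types. The call therefore sets the rise in Lp beside a value near 0. That call was lost without NP mouse 1 (0.15) or PI mouse 2 (0.11). For *Hes1* the change in Hsd minus that in Lp was 0.00 ± 0.18, and in Hsp minus Lp it was -0.31 ± 0.20 (adjusted p = 0.51). *Notch2* differed by -0.11 ± 0.24 in Hsd and -0.11 ± 0.27 in Hsp, with adjusted p of 0.80 and 0.90. The dissociation list holds 15 immediate-early and heat shock genes that respond to tissue handling. Of these, 1 rose and 1 fell between NP and PI in Lp, 2 and 2 in Hsp, and 2 and 3 in Hsd. Beside these counts, 26.9%, 16.6% and 14.3% of all genes tested were called.

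Gestation was compared with NP in hormone-sensing differentiated cells on only 20 and 41 cells of C5, and 18.6% of all genes were called. Of 6 genes tested 2 were called. *Hes1* had 105 and 116 CPM in G mice, from 13 and 30 UMIs, against 223 and 255 CPM, and it fell by 1.33 ± 0.25 (adjusted p = 2.4e-06). In this fit alone each gene's variance was taken wholly from the trend over all genes, with no weight on its own spread between mice. DESeq2 gave *Hes1* an adjusted p of 0.00028. *Jag1* had 64.9 and 42.6 CPM, from 8 and 11 UMIs, against 19 and 19.1 CPM, and it rose by 1.15 ± 0.41 (adjusted p = 0.029). This call was lost without any 1 of the 4 mice (0.13 to 0.24) and with the mouse number as a block (0.062). *Notch2*, with 0 and 1 UMI in G mice, had -2.44 ± 1.11 (adjusted p = 0.11). The median of all genes was -0.20 here. Of 35 genes of the pathway list 2 rose and 4 fell, among them *Neurl1a* (3.91 ± 1.01), *Dtx4* (-2.89 ± 0.72) and *Hes6*, from 16.7 and 15.6 to 146 and 105 CPM (2.64 ± 0.31). The dissociation list, described above, had 2 of 15 genes rising and 5 falling, with a median of -0.38, and summed to 7140 and 7814 CPM in C5 against 10201 and 9591 CPM in C4 of NP mice. Its part in the fall of *Hes1* was not tested.

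In basal cells, G mice differed from NP mice in 7 of the 8 genes tested, on a background of 46.1% of all genes. The ligands moved in opposite directions. *Jag1* had 301 and 294 CPM in NP mice and 190 and 226 CPM in G mice, and it fell by 0.43 ± 0.13 (adjusted p = 0.012). Without G mouse 1 this was -0.31 and was not called (0.092). *Jag2* had 15 and 14.6 CPM in NP mice and 32.2 and 25.8 CPM in G mice, and it rose by 1.05 ± 0.21, or 2.07-fold (adjusted p = 0.00081). Of the receptors, *Notch2* went from 22.3 and 26.4 to 13.3 and 8.75 CPM (-1.04 ± 0.25, adjusted p = 0.0030). *Notch3* fell by 1.26 ± 0.41 (adjusted p = 0.019) from 7.05 and 6.83 to 2.01 and 3.37 CPM, and *Notch1* rose by 0.70 ± 0.21 (adjusted p = 0.013) from 19.3 and 13.7 to 25.4 and 26.5 CPM. The *Notch3* call was lost without NP mouse 1 or G mouse 1 (0.11 and 0.14), and the *Notch1* call without NP mouse 2 (0.11).

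The targets of basal cells moved apart as well. *Hes1* had 58.1 and 61.0 CPM in NP mice and 20.4 and 15.3 CPM in G mice, and it fell by 1.65 ± 0.19, or 3.14-fold (adjusted p = 3.8e-06). *Hey1* had 2.82 and 3.19 CPM in NP mice, from 12 and 7 UMIs, and 9.56 and 9.43 CPM in G mice, and it rose by 1.77 ± 0.37 (adjusted p = 0.00097). Of the dissociation list 12 of 15 genes rose and 0 fell, and the list summed to 9466 and 6206 CPM in C13 against 4478 and 4034 CPM in C12. Their part in these changes was not tested. Of 35 genes of the pathway list 6 rose and 8 fell, beside the 46.1% of all genes called. The largest changes were falls of *Lfng*, a sugar transferase that modifies the receptors (-2.12 ± 0.37), and of *Dtx4* (-2.01 ± 0.46), and a rise of *Dlk2*, a Delta-like homologue (1.97 ± 0.23). The canonical ligand gene *Dll1* went from 107 and 95.6 to 57.8 and 42.2 CPM (-0.94 ± 0.16).

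From gestation to lactation the basal cells (C13 and C14) gained *Hes1* and lost *Jag1* and *Notch1*. All 10 genes were tested and 5 were called, against 48.3% of all genes. *Hes1* had 20.4 and 15.3 CPM in G mice and 135 and 150 CPM in L mice, and it rose by 3.12 ± 0.18, or 8.70-fold (adjusted p = 8.8e-06). *Nrarp* rose by 1.80 ± 0.31 (adjusted p = 0.0017), from 2.77 and 2.69 to 10.2 and 7.46 CPM. *Jag1* went from 190 and 226 to 75.0 and 93.9 CPM, and it fell by 1.19 ± 0.16 (adjusted p = 0.00045). *Jag2* stayed at 25.4 and 27.6 CPM, beside 32.2 and 25.8 CPM in G mice (-0.01 ± 0.16, 95% interval -0.39 to 0.36). *Notch1* had 25.4 and 26.5 CPM in G mice and 6.24 and 10.2 CPM in L mice (-1.55 ± 0.25, adjusted p = 0.0013).

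Other values moved beside these. *Notch3* rose by 1.64 ± 0.57 (adjusted p = 0.042), from 2.01 and 3.37 to 11.6 and 3.97 CPM. It was not called without L mouse 1 (0.69, adjusted p = 0.25) or G mouse 1 (1.31, adjusted p = 0.11). Pericyte markers summed to 163 and 89.5 CPM in C14, against 37.4 and 48.0 CPM in C13, and were higher in L mouse 1, as *Notch3* was. Their part in the *Notch3* and *Nrarp* values was not tested. All 15 genes of the dissociation list rose in L mice, and their summed level was 35803 and 29382 CPM in C14 against 9466 and 6206 CPM in C13. Their part in the rise of *Hes1* was not tested. *Hes1* was also higher in L than in G mice in immune C17 (103 and 256 against 17.7 and 54.1 CPM) and endothelial C19 (314 and 439 against 200 and 210 CPM), while in fibroblast C18 the groups overlapped (157 and 260 against 213 and 312 CPM). Of 38 genes of the pathway list 8 rose and 5 fell, beside the 48.3% of all genes called. *Dll1* rose by 1.71 ± 0.16 to 158 and 144 CPM, *Maml3* fell by 1.48 ± 0.15, and *Dtx1* rose by 1.38 ± 0.39.

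**Figure D5:**
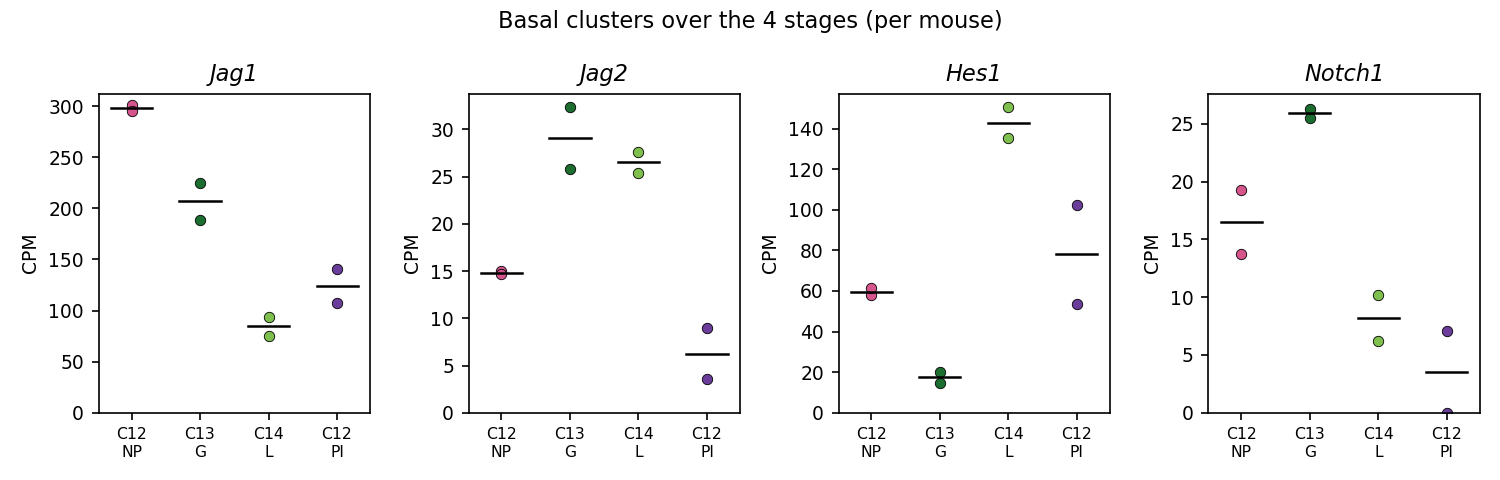
Levels of *Jag1*, *Jag2*, *Hes1* and *Notch1* in CPM per mouse (points) and mean (bars) in basal clusters, C12 of NP mice, C13 of G mice, C14 of L mice and C12 of PI mice. *Jag1* was highest in NP mice (301 and 295 CPM) and lowest in L mice, and *Hes1* was lowest in G mice and highest in L mice.

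Basal cells of PI mice were few, 28 and 59, of which 27 and 53 lay in C12. Of 7 genes tested 2 were called, against 7.43% of all genes. *Jag1* had 105 and 141 CPM, against 301 and 294 CPM in NP mice, and it fell by 1.21 ± 0.22, or 2.31-fold (adjusted p = 0.00095). *Nrarp* had 35.0 and 28.8 CPM in PI mice, from 4 and 9 UMIs, against 7.29 and 1.82 CPM (2.53 ± 0.66, adjusted p = 0.017). Its call was lost without NP mouse 1 (0.77), NP mouse 2 (0.85) or PI mouse 2 (0.16). *Hes1* had 52.5 and 92.8 CPM, a change of 0.45 ± 0.29 (adjusted p = 0.40). In C12, pericyte markers summed to 125 and 95.1 CPM in PI mice and to 48.4 and 46.2 CPM in NP mice. Immune markers summed to 851 CPM in C12 of PI mouse 1, and hormone-sensing markers to 754 CPM in C12 of PI mouse 2. *Procr*, singled out here after its values were seen, was at 332 and 148 CPM in C12 of PI mice, against 18.1 and 13.3 CPM in NP mice. Their part in these values was not tested. Of 30 genes of the pathway list tested, edgeR called 0, beside the 7.43% of all genes. DESeq2 called 0 as well, and 3 of the 30 had an unadjusted p under 0.05 in edgeR. Of the 15 dissociation genes 9 rose.

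In alveolar cells *Hes1* and *Hey1* were higher in lactation than in gestation. In differentiated alveolar cells (Avd, C8 and C9) 2 of 10 genes were called, against 18.7% of all genes. The lactating cells numbered 43 and 48, and milk genes made up 443712 and 416266 CPM of their UMIs, against 96653 and 57393 CPM in G mice. *Hes1* had 134 and 102 CPM in G mice and 293 and 235 CPM in L mice, and it rose by 2.05 ± 0.20 (adjusted p = 1.5e-05). With milk genes left out of the totals its levels in C9 were 531 and 405 CPM, against 148 and 109 CPM in C8. *Hey1* had 4.20 and 6.24 CPM in G mice and 36.4 and 16.1 CPM in L mice, from 21 and 12 UMIs, and it rose by 3.18 ± 0.44 (adjusted p = 0.00026). *Notch1* had 68.8 and 77.0 CPM in G mice and 45.0 and 25.5 CPM in L mice, with a fitted change of -0.19 ± 0.24 (adjusted p = 0.64). *Jag2*, with 1 and 2 UMIs in L mice, was not called (3.48 ± 1.23, adjusted p = 0.068), though DESeq2 called it (adjusted p = 0.0061). Without milk genes the levels of *Notch1* in C9 were 79.0 and 43.9 CPM, against 76.1 and 81.6 CPM in C8. The median of all genes was -0.14 in this comparison.

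In alveolar progenitors (Avp, C10 and C11) 3 of 6 genes were called, against 28% of all genes. *Hes1* had 152 CPM in both G mice and 448 and 438 CPM in L mice, and it rose by 1.82 ± 0.15, or 3.54-fold (adjusted p = 3.0e-05). *Hey1* had 13 and 13.1 CPM in G mice and 126 and 66.7 CPM in L mice, and it rose by 3.18 ± 0.34, or 9.07-fold (adjusted p = 0.00018). *Notch1* went from 119 and 110 to 52.3 and 71.3 CPM (-0.62 ± 0.19, adjusted p = 0.037), and its call was lost without G mouse 1 (0.16), G mouse 2 (0.084) or L mouse 1 (0.23). *Nrarp* and *Notch3* were not called (-0.18 ± 0.28 and -0.64 ± 0.27). Of the dissociation list 14 of 15 genes rose in Avp and 11 in Avd, with none falling, beside 28% and 18.7% of all genes called. Their part in the changes of *Hes1* and *Hey1* was not tested.

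Of the pathway list, 36 genes were tested in Avd, of which 2 rose and 3 fell beside the 18.7% of all genes called, and 28 in Avp, of which 2 rose and 3 fell beside 28%. *Dll1* rose in both, from 1.10 and 1.05 to 13.9 and 4.03 CPM in Avd (3.85 ± 0.72) and from 1.53 and 1.87 to 23.0 and 16.1 CPM in Avp (3.74 ± 0.48). Basal markers summed to 2206 and 957 CPM in C9, against 119 and 115 CPM in C8, to 5258 and 3789 CPM in C11, against 135 and 211 CPM in C10, and to 36934 and 33245 CPM in C14, where *Dll1* was at 158 and 144 CPM. Their part in the *Dll1* values was not tested. *Hey1* in C14 was at 6.63 and 5.54 CPM, below its level in C11. *Adam17* fell in Avd (-1.94 ± 0.61), and *Fbxw7*, which marks the freed receptor part for destruction, fell in both (-1.09 ± 0.32 and -1.21 ± 0.26). The third gene in Avp was *Dtx3l* (-0.99 ± 0.29). Over the 9 comparisons the median change of the pathway list ran from -0.37 to 0.03, and that of all genes tested from -0.20 to 0.04.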

How the data were processed

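The 10 genes and the lists were chosen with earlier results of these data known. Cells of 8 mice were sorted and sequenced with the 10x 3′ v2 chemistry. The authors deposited UMI counts per gene and cell, with an annotation of filters, clusters and each cell's mitochondrial share of UMIs (a fraction). STAR and mm10 are named in the submitters' processing notes. Of 25010 cells that passed the authors' filters, 25009 had a barcode in the matrices. The study removed C20, 310 cells, as doublets, and no further caller was run.

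Counts were summed per mouse and cluster, or per mouse and cell type (Lp C6 and C7, Hsp C1 and C2, Hsd C3 to C5, Avd C8 and C9, Avp C10 and C11, basal C12 to C14). Each comparison of 2 against 2 mice used edgeR 4.0.16 (TMM, filterByExpr with minimum counts of 10 and 15, glmQLFit) and Benjamini-Hochberg adjustment. SE is the log2 fold change divided by the square root of F. The smallest two-sided p of an exact permutation test would be 0.333. Genes most like a member had the highest Pearson correlation of log2(CPM + 1) over the 51 sums, among 13232 genes reaching 10 CPM in a sum. The sums share libraries and no p is given. Of each list's called genes at most 3 per comparison were named, largest change first, and *Rbpj*, *Adam10* and *Dll1* (basal G) beyond that, after their values were seen. Alternatives were DESeq2 1.42.0, no filter, equal depth, main clusters, milk genes left out, a replicate block, and leaving out each mouse. Scripts were tested on simulated counts. Intervals and limits for 0 counts (3 UMIs) cover counting error only.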

Additional observations from a re-analysis of the deposited data

Results flagged for a closer look

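The change from NP to PI mice differed between cell types for 2 of the 10 genes, by the interaction term in edgeR's quasi-likelihood test. *Notch4* and *Jag2* had too few UMIs to be tested. Of all genes tested, 20.2% differed in Hsd minus Lp and 3.55% in Hsp minus Lp. For *Nrarp*, the change in Hsd minus that in Lp was 1.66 ± 0.25 (adjusted p = 5.9e-05), and it was called with each of the 4 mice left out (1.32 to 1.88, adjusted p = 1.3e-05 to 0.013). For *Nrarp* in Hsp minus Lp it was 1.01 ± 0.27 (adjusted p = 0.042), a call lost without any 1 mouse. For *Hey1* in Hsd minus Lp it was -2.17 ± 0.63 (adjusted p = 0.019), a call lost without NP mouse 1 or PI mouse 2. In Hsd alone *Hey1* did not pass the filter on low counts, so this call sets the rise in Lp beside a value near 0. No group held the 4 mice that a test for a mouse far from the others needs.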

How the results depend on the processing

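The 46 values of single genes followed here were those called or large beside their SE in the main test, and the differences of *Hes1* between cell types. A gene that an alternative did not test, or left without an adjusted p, gave no value, so calls lost that way are not counted. Of 245 values of single genes under alternatives that kept all mice, 222 kept their direction and their side of the threshold, 17 lost the call and 3 gained it. The 3 that changed sign were all the difference of *Hes1* between Hsd and Lp, which was -0.051 with no filter, -0.014 in main clusters only and -0.029 with no mouse term. With 1 mouse left out it ran from -0.39 to 0.28. The causes of the changes below were not tested, beyond the lower counts and mice that the alternatives themselves leave.

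With DESeq2 fewer genes were called in Lp (1590, against 2892), Hsp (823, against 1778), basal PI against NP (385, against 632), basal G against NP (3098, against 5114) and Avp (1144, against 2368), and 1 of the 10 genes instead of 2 in Hsd PI against NP and in basal PI against NP. The share of rises among all genes called went from 51.0% to 62.4% in Avd, from 56.0% to 71.7% in Avp and from 43.0% to 54.0% in Hsd G against NP. DESeq2 did not call *Notch2* in Lp, Hsp and Hsd (adjusted p = 0.070, 0.27 and 0.055), *Notch1* and *Notch3* in basal G against NP (0.11 and 0.16) or *Notch1* in Avp (0.30).

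At equal depth 679 genes were called in Hsd G against NP (2047 in the main test), 144 in basal PI against NP and 1131 in Avd (2219), and 1 of the 10 genes instead of 2 in those comparisons and in Hsd PI against NP. In Avd *Hes1* was the one still called, and *Hey1* no longer passed the filter. With no filter, basal PI against NP had 18 genes called and 0 of the 10, Hsd G against NP had 1 of the 10, and *Nrarp* in Hsd PI against NP was called (adjusted p = 0.018). Without the mouse term 86 genes differed between Hsp and Lp (417 with it), with 0 of the 10, and 1159 between Hsd and Lp (2375).

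Leaving out 1 mouse gave 1704 to 2472 genes called in Lp, 476 to 1960 in Hsp, 928 to 2458 in Hsd PI against NP, 808 to 1580 in Hsd G against NP, 194 to 891 in basal PI against NP, 3423 to 5088 in basal G against NP, 4657 to 5703 in basal L against G, 609 to 1890 in Avd and 1625 to 2538 in Avp. Of the 10 genes, 3 to 4 were then called in Lp, 2 to 3 in Hsp, 0 to 3 in Hsd PI against NP, 1 in Hsd G against NP, 1 to 2 in basal PI against NP, 5 to 7 in basal G against NP, 4 to 5 in basal L against G, 2 in Avd and 2 to 4 in Avp. Between cell types 99 to 359 genes differed in Hsp, with 0 of the 10, and 1123 to 2385 in Hsd, with 1 to 2.

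Mouse numbers are shared by the stages but do not pair the mice: deviations of same-numbered mice correlated at -0.06 to 0.06 across genes. With the replicate block 1 of the 10 genes was called in Hsd G against NP, *Hes1*, *Notch2* in Hsp was not called (adjusted p = 0.053) and *Notch3* in Lp was (0.041). Depth limits the low genes most: *Jag2* in luminal cells and *Hey1* in Hsd rest on few UMIs.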
